A study of Mus musculus with 16 samples.

Results

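The cytosolic ribosomal protein genes encode the proteins of the ribosome that works outside mitochondria. They were picked by symbol from the deposited gene tables. The symbols were Rplp0, Rplp1, Rplp2, Rpsa, and Rpl or Rps followed by digits and at most 1 of the letters a, l or x. Pseudogenes with a -ps suffix and the Rps6k kinases were left out. A mean of at least 5 CPM (counts scaled to the library total) over the 16 libraries was also required. This gave 79 of 55487 gene rows, 47 of the large and 32 of the small subunit. The level itself therefore chose them. Another 4 rows had a matching symbol but lower levels: Rpl6l averaged 3.21 CPM, Rpl32l 0.502 CPM, Rpl39l 0.0786 CPM and Rpl10l had no count in any library. For a library, a count of 0 allows up to 3 counts, between 0.0131 and 0.0868 CPM, which covers counting error only. Just inside the limit lay Rps4l with 7.17 CPM and then Rpl36a with 22.5 CPM.

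RNA came from mid sections of left ventricles; the mice were C57Bl/6J, 24 months old and untreated. The compared hearts came from 8 multiparous mice, with a history of more than 3 pregnancies, and 8 virgin mice, to ask what parity as such leaves in the heart. Multiparous libraries are named with the code MP (replicates 3, 4, 6 and 8) or the code P (replicates 1, 2, 5 and 7), and all virgin libraries carry AA. The labels do not say what the codes mean, so parity cannot be told apart from anything tied to them. Gene counts ranged from 34560606 to 58890976 in 15 libraries and reached 228325238 in virgin 8. The ribosomal protein genes took between 0.77% and 0.97% of them. Cardiomyocyte markers, 12 of 12 detected, summed to between 72064 and 83260 CPM in multiparous and between 68417 and 87506 CPM in virgin hearts. Virgin 1 stood apart: it had the lowest cardiomyocyte sum, the highest macrophage sum (587 CPM) and the highest lymphocyte sum (121 CPM) of the 16. CPM values below are scaled by TMM, a correction of library totals for composition.

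A ribosome has 1 copy of nearly every one of these proteins, so the proteins are needed in nearly equal amounts. Many start with a run of pyrimidines at the very first base, the 5′ terminal oligopyrimidine (TOP) motif, through which the growth-sensing kinase mTOR and the RNA-binding protein LARP1 control their translation. The heart also has its own variant: Rpl3l replaces Rpl3 near the catalytic centre of ribosomes in cardiac and skeletal muscle. Rpl5 and Rpl11 join the small 5S ribosomal RNA and, when free of the ribosome, bind Mdm2, the main inhibitor of p53.

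In multiparous hearts the ribosomal protein genes were nearly level with virgin hearts. Of 79 genes, 0 passed an adjusted p of 0.05 in edgeR's quasi-likelihood test, against 0.0112% of the 17813 genes tested. At an unadjusted p under 0.05 there were 2, Rps4l and Rpl21, which is 2.53% of them against 8.12% of all genes, and DESeq2 and limma voom also called 0. The log2 fold changes, multiparous over virgin, lay between -0.06 and 0.33 with a median of 0.02, against -0.00297 over all genes. They were positive for 59 of 79 genes (74.7%), against 48.6% of all genes. Without TMM scaling 74 of 79 were positive, with the median of all genes moved to 0.03. The count also turned on single libraries: it was 45 without virgin 7, 50 without multiparous 4 or without virgin 5, and 70 without virgin 1, with the median between 0.0051 and 0.0405. With the summed kidney tubule markers as a covariate 74 were positive and the median was 0.0736, and without both virgin 1 and virgin 8 these were 71 and 0.0512, with 6 genes at an unadjusted p under 0.05. The kidney sum averaged 27.2 ± 8.4 CPM in multiparous hearts and 81.4 ± 48.4 CPM in virgin ones, 11 of 20 markers at 1 CPM or more, and its part in the result was not tested beyond that covariate. Since the tissue was taken whole, fewer cells of a type and less RNA per cell cannot be told apart in any of these values.

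The intervals bound what could have been missed. For 76 of 79 genes the 95% interval of the fold change stayed within 1.2-fold either way, against 50.7% of all genes, and for 78 it stayed within 1.5-fold. Intervals are narrower for genes with more counts, and the level chose these genes. The contrast with all genes is therefore no result about them. Besides Rps4l, only Rps21 (-0.11 to 0.35) and Rps10 (-0.08 to 0.26) reached past 1.2-fold. Rps21 was singled out after its values were seen. The 79 genes together summed to 8541 ± 346 CPM in multiparous hearts and 8432 ± 490 CPM in virgin ones; errors here are SDs over 8 libraries. The values of the groups were apart for 0 genes in either direction, against 0.0168% of all genes each way. The balance of the subunits moved even less. Small-subunit genes summed to 74.26 ± 0.48 CPM per 100 CPM of large-subunit genes in multiparous hearts and 74.34 ± 0.33 CPM in virgin hearts, with every library between 73.6 and 75.1.

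**Figure D1:**
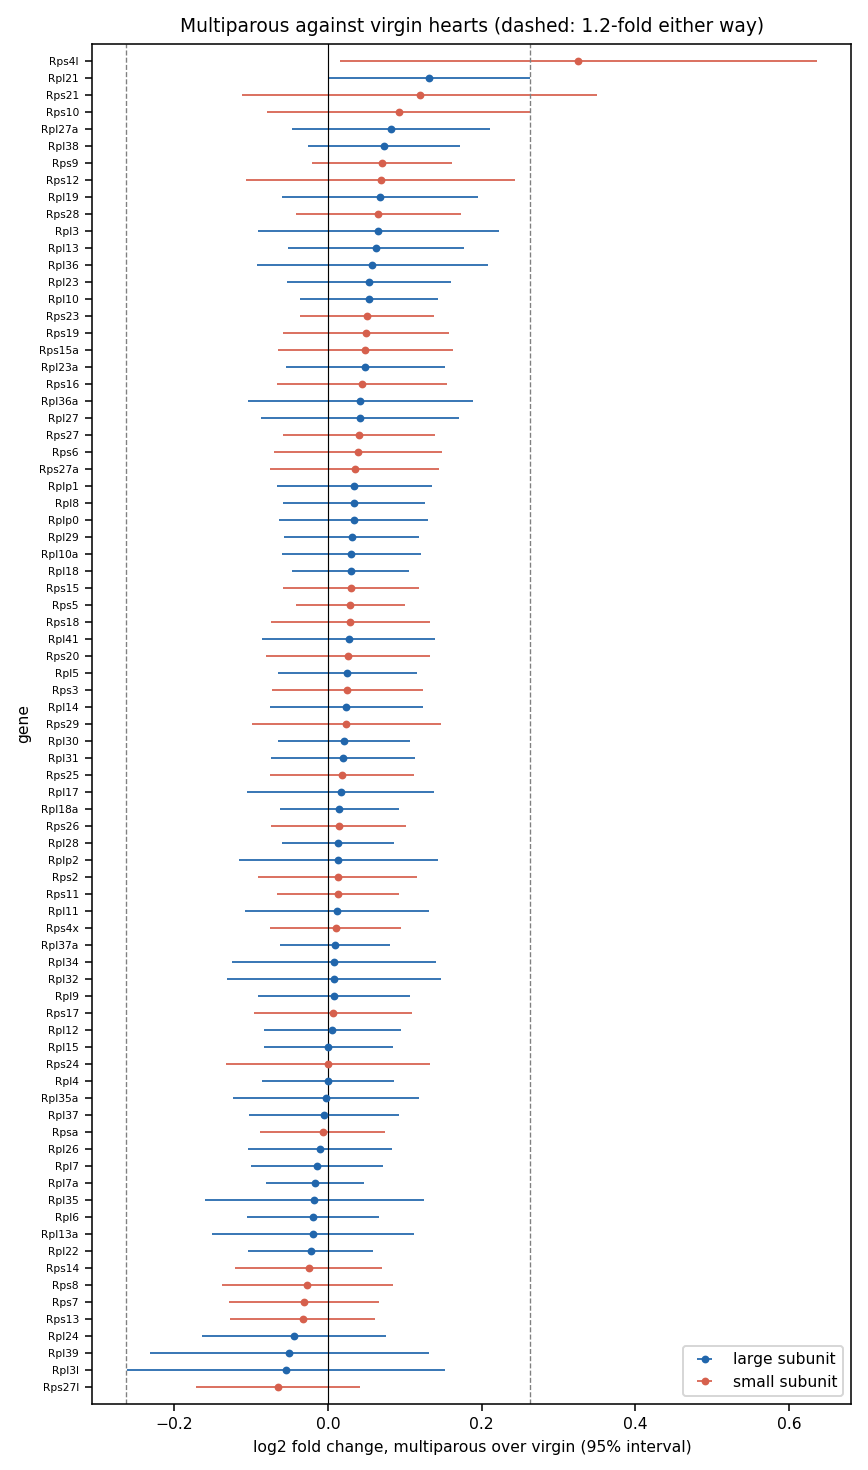
Log2 fold change, multiparous over virgin, of each of the 79 ribosomal protein genes (points) with its 95% interval (lines), large subunit in blue and small subunit in red, with dashed lines at 1.2-fold either way. Nearly all intervals cross 0 and stay between the dashed lines, apart from Rps4l, Rps21 and Rps10 at the upper end.

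The acidic stalk of the large subunit, which recruits the elongation factors, had no gene that passed. Rplp0, its base, had 356 CPM in the lowest, 377 CPM in the median and 396 CPM in the highest multiparous library, against 307, 375 and 393 CPM in virgin hearts, a log2 fold change of 0.03 (SE 0.05, edgeR adjusted p = 0.908). The multiparous range lay inside the virgin one but for its top value. Rplp1 averaged 134.8 ± 7.6 CPM in multiparous hearts, against 131.6 ± 10.2 CPM in virgin hearts. Rplp2 averaged 107.4 ± 11.3 CPM in multiparous hearts, against 106.4 ± 7.9 CPM in virgin hearts. Of the partners of the 5S RNA, Rpl5 measured 133.9 ± 5.9 CPM in multiparous hearts, against 131.5 ± 9.5 CPM in virgin hearts. Rpl11 measured 70.0 ± 6.0 CPM in multiparous hearts, against 69.4 ± 5.8 CPM in virgin hearts.

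Among the remaining large-subunit genes, Rpl21 had the smallest p. Its multiparous libraries ran from 59.6 CPM over a median of 66.3 to 82.3 CPM, and its virgin libraries from 55.2 over 60.2 to 68.2 CPM. The groups overlapped broadly, and multiparous 3 and 4, both coded MP, were the top pair. The log2 fold change was 0.13 (SE 0.06, 95% interval 0.00 to 0.26, unadjusted p = 0.0485, edgeR adjusted p = 0.614). Rpl21 (ENSMUSG00000041453.12) lies on chromosome 5 at 146832890 to 146837032, plus strand, in GRCm38, and 10.9% of its 150-base windows occur in annotated transcripts of other genes. Rpl38, which in mice is known for control of Hox messages, averaged 37.97 ± 2.55 CPM in multiparous hearts, against 36.07 ± 2.28 CPM in virgin hearts. Rpl27a averaged 94.9 ± 9.1 CPM in multiparous hearts, against 89.6 ± 7.6 CPM in virgin hearts. Towards the other end, Rpl24, Rpl22 and Rpl39 had log2 fold changes of -0.04, -0.02 and -0.05 (edgeR adjusted p = 0.893, 0.931 and 0.931). Rpl39, a small protein of the exit tunnel, reached 50.7 CPM in virgin 1 and at most 41.1 CPM in every other library. Rpl13a, which leaves the ribosome in the interferon response of human cells, averaged 28.7 ± 2.6 CPM in multiparous hearts, against 29.1 ± 2.7 CPM in virgin hearts.

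In the small subunit the gene with the largest fold change was Rps4l. It is annotated as a transcribed processed pseudogene, on chromosome 6 at 148354656 to 148355598, plus strand (GRCm38, ENSMUSG00000063171.4), and none of its 150-base windows occurs in an annotated transcript of another gene. It had 5.90 CPM in the lowest, 7.91 CPM in the median and 10.2 CPM in the highest multiparous library, against 4.01, 6.45 and 8.99 CPM in virgin hearts. The lowest levels were in virgin 2, 3 and 1, with 4.01, 4.42 and 5.12 CPM, and the other virgin hearts lay within the multiparous range. Multiparous over virgin, the log2 fold change came to 0.33 (SE 0.15, with 95% bounds of 0.02 and 0.64, unadjusted p = 0.0408, edgeR adjusted p = 0.590). Rps4x, the X-linked gene for a protein of the small subunit body, averaged 182.6 ± 7.3 CPM in multiparous hearts, against 181.3 ± 11.9 CPM in virgin hearts.

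Rps6, the substrate of the S6 kinases, measured 164.2 ± 12.03 CPM in multiparous hearts, against 159.9 ± 12.3 CPM in virgin hearts. Rpsa, which doubles as the laminin receptor, measured 371 ± 17 CPM in multiparous hearts, against 373 ± 18 CPM in virgin hearts. Rps19, the gene most often mutated in human Diamond-Blackfan anaemia, had 68.7 ± 3.3 CPM in multiparous hearts, against 66.4 ± 6.3 CPM in virgin hearts. Rps27a, which is made as a fusion with ubiquitin, had 62.6 ± 5.1 CPM in multiparous hearts, against 61.1 ± 4.4 CPM in virgin hearts. Rps9, of the small subunit body, and Rps28, at the exit of the message channel, had log2 fold changes of 0.07 each (edgeR adjusted p = 0.741 and 0.802). Rps27l, a p53-induced variant of Rps27, had the lowest log2 fold change of the 79, -0.06 (SE 0.05, edgeR adjusted p = 0.804), with 22.0 ± 1.7 CPM in multiparous hearts, against 23.1 ± 1.3 CPM in virgin hearts. Within the small subunit, Rps13 and Rps7 came next at -0.03 each (edgeR adjusted p = 0.906 and 0.915). All 14 genes of the small subunit head had a positive log2 fold change, between 0.01 and 0.09, and none passed the test. Positive values were also found for 25 of the 32 small-subunit genes and 59 of all 79. The count for the head stayed at 14 under every other scaling and test tried. It was between 12 and 14 when single libraries were left out.

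The libraries differed from each other more than the groups did, and the genes did so together. Against each gene's own median over the 16 libraries, 73 of 79 genes were above it in multiparous 4 and 72 in multiparous 3, both coded MP. In virgin 1 this held for 72 genes and in virgin 2 for 69. At the other end, 3 of 79 were above it in virgin 7, 10 in virgin 5 and 12 in virgin 4. Virgin 1 held the highest level of the 16 libraries for 26 genes and multiparous 4 for 21, and virgin 7 held the lowest for 34. The mean distance from the genes' own averages ran from -0.15 in virgin 7 to 0.12 in multiparous 4 on the log2 scale. Each group thus held libraries from both ends, as the plot of all genes by library shows. Multiparous 4 and virgin 1 also had high macrophage sums, 496 and 587 CPM, while multiparous 6, with 575 CPM, had only 19 genes above their medians. Malat1, a nuclear RNA, was highest in virgin 1 with 8515 CPM. In virgin 7 the macrophage sum was 307 CPM and the cardiomyocyte sum 78075 CPM, both within the range of the other virgin hearts or at its edge. The part of cell makeup or RNA quality in these library differences was not tested.

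**Figure D2:**
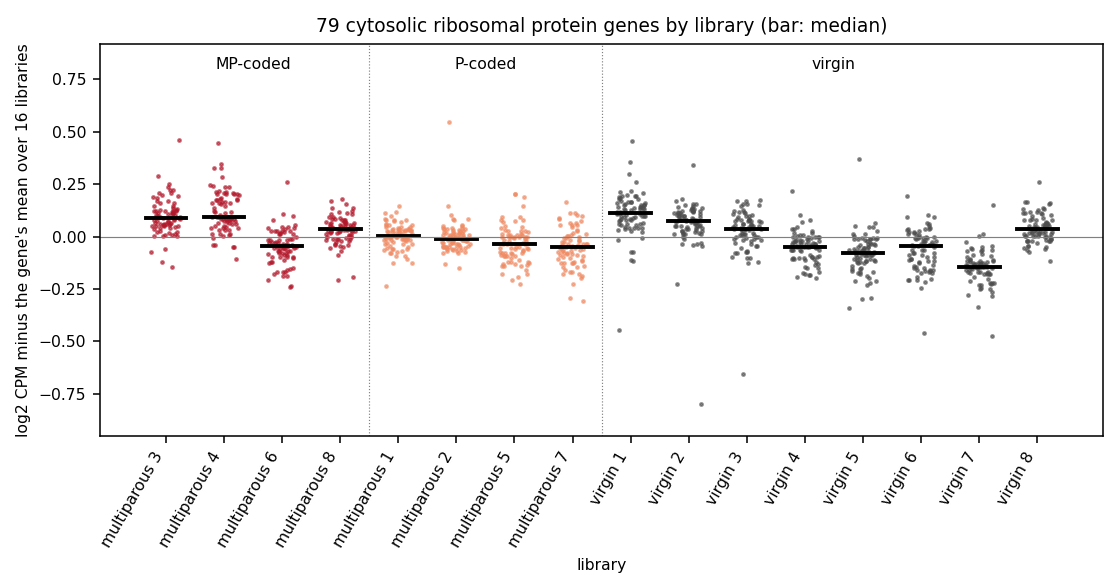
Log2 CPM of each of the 79 genes minus its mean over 16 libraries (points) in every library, with the MP-coded hearts on the left, the P-coded hearts next and the virgin hearts on the right; bars are medians. The clouds shift as a whole: multiparous 3 and 4 and virgin 1 and 2 sit above 0, and virgin 7 lies lowest.

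Within a gene the spread was small. The coefficient of variation over the 16 libraries had a median of 6.80%, and 4348 other genes of like level, between 27.3 and 190.6 CPM, had 6.57%. Rpl7a varied least, at 3.21%. Rps4l varied most, at 23.7%, followed by Rps21 at 17.5%, Rpl3l at 14.5%, Rpl39 at 13.2% and Rps12 at 12.9%. Rps21 had 65.5, 65.0, 40.4 and 49.9 CPM in multiparous 3, 4, 6 and 8 and 50.1, 46.0, 42.1 and 43.6 CPM in multiparous 1, 2, 5 and 7. Its virgin libraries ran from 37.7 over a median of 48.1 to 53.9 CPM. Only the pair multiparous 3 and 4 stood above that range.

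The first bases of the transcripts are shown because the TOP run is what these genes are known to share for their joint control. RefSeq start sites were found for 58 of the 79 genes, 70 starts in all, in GRCm38.p6. Windows run from 20 bases before the start to 10 bases from it, and capitals mark the run at the start, a C followed by at least 4 pyrimidines. Rps15a and Rps27 hold another such run farther before the start, left in lower case. In Rps6, Rpl38, Rps15a, Rps10, Rps21, Rplp2 and Rps27 the annotated start is itself such a C, and the capitals begin there even where pyrimidines also precede it. Rplp0, Rps12 and Rpl3l have no such run within the 30 bases shown. A run that begins at or past the end of the window would not be seen.
Rps6: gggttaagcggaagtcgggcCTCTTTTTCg
Rpl38: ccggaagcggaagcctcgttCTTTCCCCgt
Rps15a: gcccactctctttctgccatCTTCCCTCgc
Rps10: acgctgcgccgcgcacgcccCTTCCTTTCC
Rps21: gcacttaccgaggacccgccCTCCTgccca
Rplp2: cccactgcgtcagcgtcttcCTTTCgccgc
Rps27: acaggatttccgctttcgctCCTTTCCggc
Rplp0: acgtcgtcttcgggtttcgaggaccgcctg
Rps12: ttaaataccgtcatgcggccaccgccggcc
Rpl3l: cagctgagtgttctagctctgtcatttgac

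The windows lie at chr4:86857358-86857387 (minus strand) for Rps6, chr11:114668560-114668589 (plus) for Rpl38, chr7:118116138-118116167 (minus) for Rps15a and chr17:27635235-27635264 (minus) for Rps10. Those of Rps21, Rplp2 and Rps27 are at chr2:180257359-180257388 (plus), chr7:141447631-141447660 (plus) and chr3:90213639-90213668 (minus). Rplp0, Rps12 and Rpl3l have theirs at chr5:115559447-115559476 (plus), chr10:23787200-23787229 (minus) and chr17:24727806-24727835 (plus). A C at the start followed by at least 4 pyrimidines was found at 13 of the 70 starts (18.6%), against 2.51% of 32851 RefSeq starts of all genes. Within 10 bases to either side, one was found at 54.3% of the ribosomal protein starts, against 30.7% of all starts. In the 300 bases from 250 before to 50 after the start, CCGGAAG, searched on both strands, was found at 35.7% of these starts against 8.86% of all starts. GGGCGG, searched the same way, was found at 58.6% against 35.7%, and 21.4% of the ribosomal protein starts held both, against 5.33% of all starts. TATAAA between 40 and 15 bases before the start was found at 0 of 70 against 1.99%. These are matches of letters at annotated starts, which can lie some bases from the true ones.

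Rpl3l and Rpl3, the pair that occupies the same place in the ribosome, varied in opposite directions across the libraries. Rpl3l had 110 CPM in the lowest, 133 CPM in the median and 159 CPM in the highest multiparous library, against 98.2, 144 and 173 CPM in virgin hearts. Rpl3 had 87.0, 96.4 and 115 CPM in multiparous and 82.2, 91.4 and 118 CPM in virgin hearts. Neither passed the test between the groups, with log2 fold changes of -0.05 for Rpl3l (SE 0.10) and 0.07 for Rpl3 (SE 0.07; edgeR adjusted p = 0.935 and 0.877). Across the 16 libraries, however, Rpl3l was lower where Rpl3 was higher, with Pearson's r = -0.806 and Spearman's rho = -0.862 (permutation p = 0.00016 and 0.00005, adjusted 0.0008 and 0.00025 over 5 pairs of genes). Leaving out multiparous 6 and virgin 1, the pair farthest from the median of Rpl3, gave r = -0.892. The relation held within each group, with r = -0.860 in multiparous hearts (exact permutation p = 0.00709) and r = -0.772 in virgin hearts (exact permutation p = 0.0440).

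Virgin 2 marked one end, with 173 CPM of Rpl3l and 82.2 CPM of Rpl3. Virgin 7, multiparous 7, multiparous 6 and multiparous 8 lay towards the other, with Rpl3l between 98.2 and 121 CPM and Rpl3 between 104 and 115 CPM. Virgin 1 had the most Rpl3, 118 CPM, and 126 CPM of Rpl3l. The cardiomyocyte marker sum was 87506 CPM in virgin 2, the highest of all, and between 72064 and 78075 CPM in those 4 libraries, and 68417 CPM in virgin 1. Its part in the relation was not tested. In GRCm38, Rpl3l spans 24727820 to 24736143 of chromosome 17 (plus strand) and Rpl3 spans 80077791 to 80091868 of chromosome 15 (minus strand).

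Per kilobase of summed exon length, the level of Rpl3l was 2.69 ± 0.61 times that of Rpl3 in multiparous and 2.95 ± 0.75 times in virgin hearts (SD, n = 8 each, exact two-sided permutation p = 0.458, adjusted 0.573 over 5 pairs). Over the longest protein-coding transcript, 1375 bases for Rpl3l and 1351 bases for Rpl3, it was 1.37 ± 0.31 times in multiparous and 1.499 ± 0.383 times in virgin hearts. By the second length the ratio ran from 1.03 to 1.80 in multiparous and from 0.903 to 2.07 in virgin hearts. None of the 150-base windows of Rpl3l occurs in another annotated gene, but 71.0% of those of Rpl3 do, mostly in the processed pseudogene Rpl3-ps1, so the count of Rpl3 is the less certain of the pair.

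**Figure D3:**
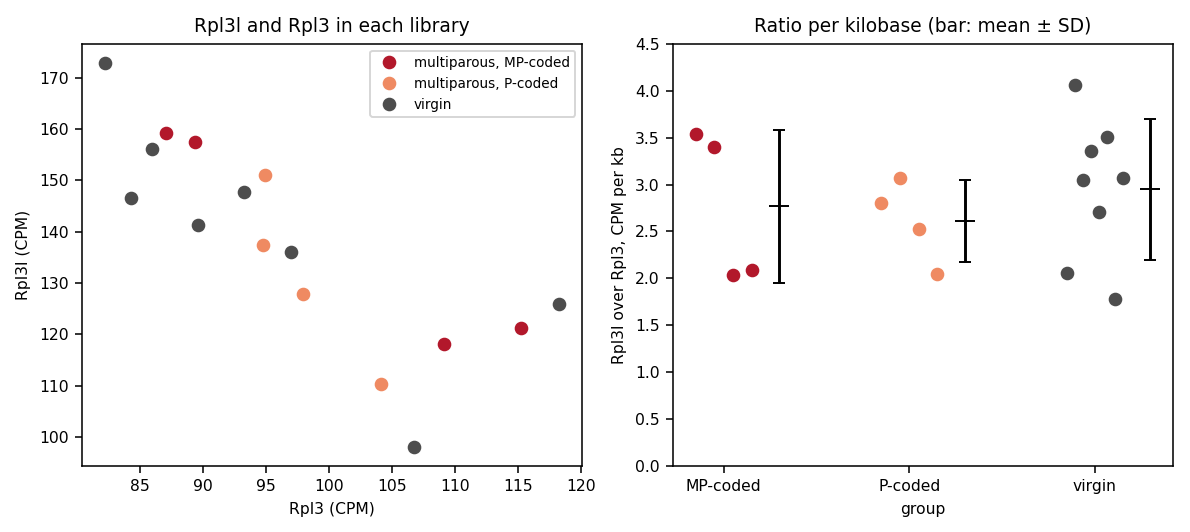
Left, CPM of Rpl3l against CPM of Rpl3 in each of the 16 libraries, coloured by library code; right, the ratio of the 2 genes in CPM per kilobase of summed exon length for MP-coded, P-coded and virgin hearts, with mean ± SD. Libraries with more Rpl3 have less Rpl3l, and the ratios of the codes overlap.

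None of the other 4 pairs had an inverse relation across the 16 libraries that passed the adjustment. Rps27l ran at 0.336 ± 0.037 of Rps27 per kilobase in multiparous and 0.362 ± 0.033 in virgin hearts (exact permutation p = 0.170, adjusted 0.425). Rps4l ran at 0.0758 ± 0.0124 of Rps4x in multiparous and 0.0615 ± 0.0200 in virgin hearts (exact permutation p = 0.108, adjusted 0.425), with r = -0.459 across libraries (permutation p = 0.0751, adjusted 0.0939). Within virgin hearts r of Rps4l with Rps4x was -0.795 (exact permutation p = 0.0254, not adjusted). Within multiparous hearts it was 0.0622 (exact permutation p = 0.902, not adjusted). Rpl36al, which the rule leaves out, ran at 0.339 ± 0.030 of Rpl36a in multiparous and 0.358 ± 0.040 in virgin hearts. Rpl22l1, likewise left out, ran at 0.143 ± 0.027 of Rpl22 in multiparous and 0.145 ± 0.011 in virgin hearts. Across libraries r was 0.509 for Rpl36al with Rpl36a and 0.531 for Rpl22l1 with Rpl22 (permutation p = 0.0442 and 0.0344, adjusted 0.0737 each), and rho was 0.541 and 0.650 (permutation p adjusted to 0.0543 and 0.0201).

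Levels per length spread over more than an order of magnitude. Per kilobase of summed exon length the median gene had 51.6 CPM. Rplp1 led with 267 CPM per kilobase, followed by Rps15 with 251, Rplp0 with 223 and Rps2 with 215 CPM per kilobase. Lowest were Rps4l with 7.61, Rps15a with 8.84, Rps10 with 11.8 and Rpl36a with 13.6 CPM per kilobase. The order depends on the length used. Over the longest protein-coding transcript Rps2 led, with 360 CPM per kilobase, and Rps4l and Rps15a remained the lowest pair. Rps15a has a long annotated transcript of 5179 bases, which lowers its value. Without length, Rps2 had the most counts, averaging 395 ± 21 CPM in multiparous hearts, against 392 ± 30 CPM in virgin hearts.

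**Figure D4:**
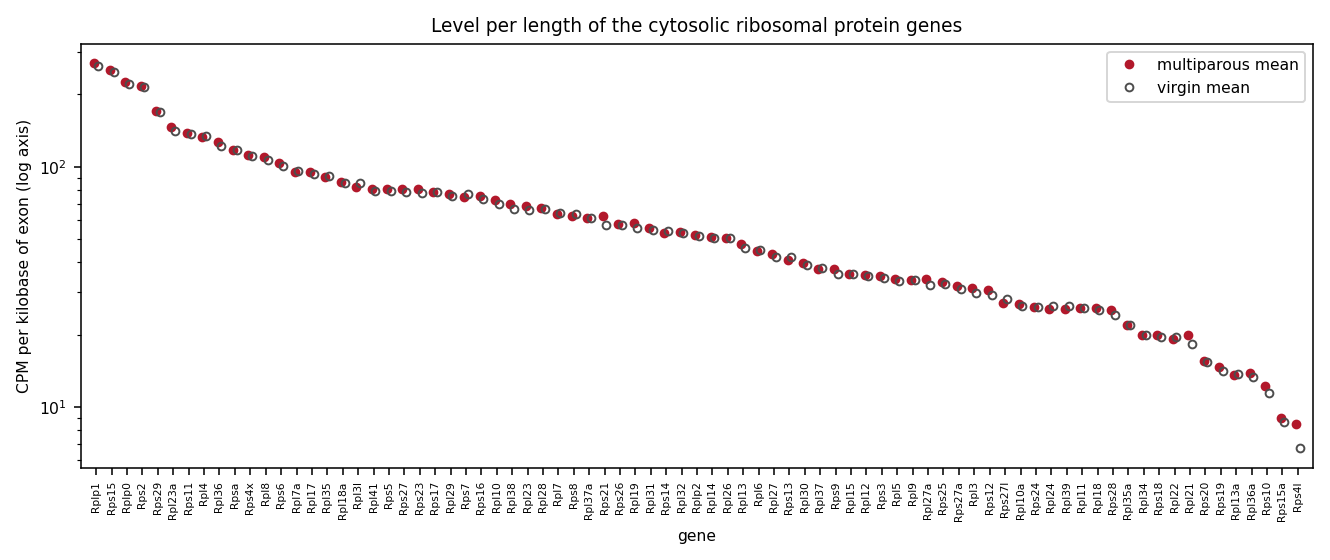
Mean level of the 79 genes in CPM per kilobase of summed exon length (log axis), filled for multiparous and open for virgin hearts, in descending order. The values run from 267 for Rplp1 to 7.61 for Rps4l over all libraries, and the filled and open points of a gene nearly coincide, with the widest gap at Rps4l.

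Copies and overlapping genes limit how the counts can be read. Ribosomal protein genes have seeded many processed pseudogenes. Of the 79, 66 share at least 1 stretch of 150 bases, the read length, with an annotated transcript of another gene. In 18 of them, at least 50% of such stretches are shared. These counts take in genes that overlap at the same place as well as copies. For Rpl13a all 473 shared stretches were with Gm45713, on the same strand. For Rpl5, 804 were with Dipk1a, on the opposite strand. Paired reads can settle some of these cases, and reads that fit several genes are commonly left uncounted. The 318 rows with a ribosomal protein symbol and a -ps suffix summed to 117 CPM, against 8485 CPM for the 79 genes. Many copies carry other symbols. The 247 pseudogene rows that share such a stretch with the 79 genes, some of them -ps rows, summed to 218 CPM. The 18 genes with much sharing had a median of 43.1 CPM per kilobase and a median coefficient of variation of 7.31%, and the rest 53.4 CPM per kilobase and 6.67%. Exons of 27 genes overlap another gene on the same strand and 18 overlap one on the opposite strand. The strand setting of the counting is not given in the sources used here.

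Between the library codes, the log2 fold change favoured the MP-coded hearts for nearly the whole set, but no gene passed and not every MP-coded heart was high. Summed over the 79 genes, multiparous 3, 4, 6 and 8, coded MP, had 9002, 9062, 8206 and 8682 CPM, and multiparous 1, 2, 5 and 7, coded P, had 8496, 8445, 8241 and 8194 CPM. Multiparous 6 was thus below 3 of the 4 P-coded hearts. Of 79 genes, 0 passed the adjusted p of 0.05 in edgeR, against 0.121% of 18123 genes, and 0 in DESeq2. At an unadjusted p under 0.05 there were 5 (6.33%), Rps12, Rps13, Rps20, Rpl26 and Rps19, against 11.0% of all genes. That count hung on single libraries: it was 22 without multiparous 6, 4 without multiparous 1, 3 without multiparous 8, 2 without multiparous 2 or without multiparous 3, and 0 without multiparous 4 or without multiparous 7. The log2 fold change, MP over P, was positive for 73 of 79 genes (92.4%), against 50.6% of all genes, with a median of 0.08 against 0.00192. Other scalings gave 72 or 73, single libraries left out gave between 70 (multiparous 1) and 73, and the kidney marker sum as a covariate gave 67. The 95% interval stayed within 1.2-fold for 58 of 79, against 35.3% of all genes, a contrast that the level of the chosen genes again sets in part. The summed level was 8738 ± 392 CPM in MP-coded and 8344 ± 149 CPM in P-coded hearts (SD, n = 4 each). The direction was not particular to these genes. Of 77 mitochondrial ribosomal protein genes, 67 were positive and 10 negative, MP over P, with a median log2 fold change of 0.07.

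Rps12, of the small subunit head, had the smallest p, with 70.2, 75.3, 56.9 and 63.0 CPM in MP-coded hearts and 58.8, 58.1, 60.1 and 53.5 CPM in P-coded hearts. Multiparous 6 lay within the P range and the other 3 MP libraries above it. The log2 fold change was 0.21 (SE 0.08, edgeR adjusted p = 0.381), and 79.5% of the windows of Rps12 are shared with other annotated genes. Rps13 had 121, 116, 109 and 115 CPM in MP-coded hearts and 104, 110, 107 and 101 CPM in P-coded hearts, a log2 fold change of 0.13 (SE 0.05, edgeR adjusted p = 0.383). Here too multiparous 6 overlapped the P range. Rps20 (0.12, SE 0.05, edgeR adjusted p = 0.389) and Rpl26 (0.11, SE 0.05, edgeR adjusted p = 0.433) were close behind. The lowest log2 fold changes were those of Rps27 (-0.04), Rplp1 (-0.03), Rps26 (-0.02) and Rpl31 (-0.02), with edgeR adjusted p between 0.882 and 0.945.

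The codes did not overlap for 5 genes, all higher in MP, which is 6.33% against 2.96% of all genes, and for 0 genes lower in MP, against 2.92%. These were Rps3, Rpl6, Rps9, Rpl26 and Rps15a. Rpl6 had 149, 147, 143 and 138 CPM in MP-coded hearts and 133, 137, 135 and 135 CPM in P-coded hearts. For Rps9 the values were 95.2, 105, 95.1 and 96.2 CPM in MP-coded and 94.4, 90.3, 91.97 and 92.7 CPM in P-coded hearts. Their edgeR adjusted p were 0.467 and 0.558. All 14 head genes of the small subunit had a positive log2 fold change, 0.06 to 0.21 with a median of 0.09, also under every alternative run. So did 29 of the 32 small-subunit genes and 73 of all 79, so the direction was not particular to the head. In the peptide exit tunnel and exit site 7 of 8 were positive, with a median of 0.11, and the body and platform of the small subunit had 15 of 18, with a median of 0.06.

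**Figure D5:**
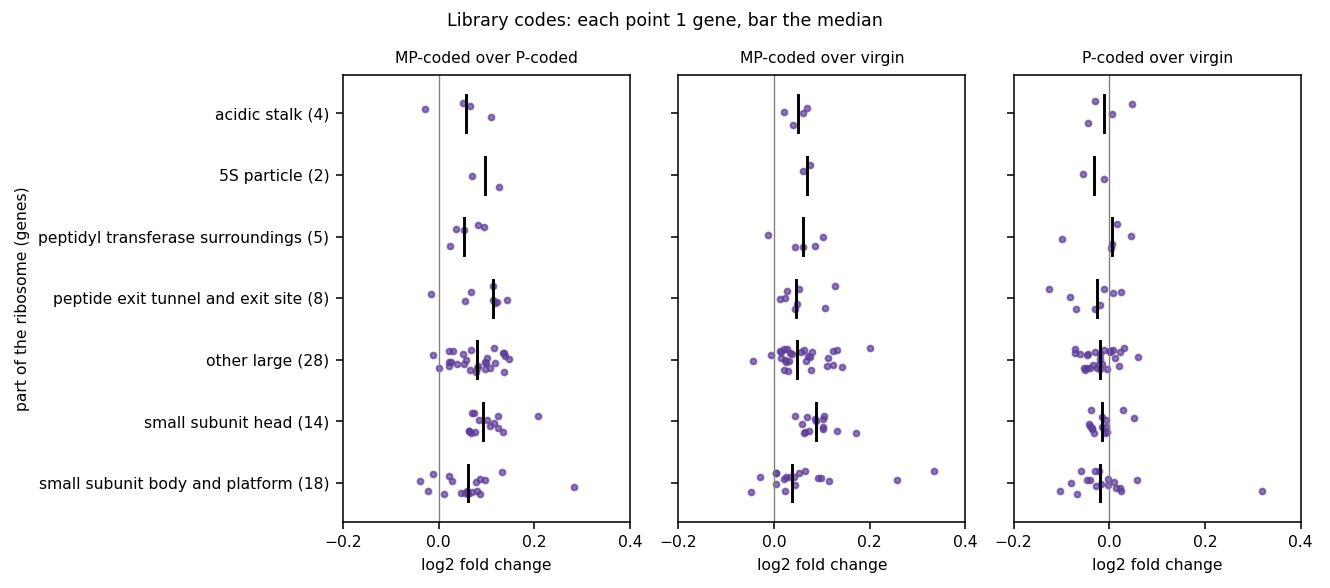
Log2 fold change of each gene (points) by the part of the ribosome, with bars at the median, for MP-coded over P-coded, MP-coded over virgin and P-coded over virgin hearts. Most genes lie to the right of 0 for MP-coded hearts against both others, and most lie just left of 0 for P-coded against virgin hearts, whose 8 libraries both right-hand panels share.

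Macrophage marker sums were 371 to 575 CPM in MP-coded and 311 to 415 CPM in P-coded hearts, 10 of 10 markers detected at 1 CPM or more. Lymphocyte sums were 59.2 to 87.3 CPM in MP-coded and 37.2 to 93.1 CPM in P-coded hearts, 8 of 10 markers at 1 CPM or more. Mesothelial sums were 24.1 to 41.2 CPM in MP-coded and 7.66 to 29.3 CPM in P-coded hearts, 5 of 8 markers at 1 CPM or more. The codes did not overlap for 2 lists: brain sums were 119 to 151 CPM in MP-coded and 101 to 105 CPM in P-coded hearts, 5 of 10 markers at 1 CPM or more, and adipocyte sums were 26.8 to 32.3 CPM in MP-coded and 24.4 to 26.2 CPM in P-coded hearts, 2 of 8 markers at 1 CPM or more. Camk2a and Slc17a7, averaging 55.36 and 45.05 CPM before TMM scaling, made up most of the brain sum, and Snap25 averaged 0.518 CPM. Pparg and Cidea, with 11.99 and 12.85 CPM, made up most of the adipocyte sum, and Adipoq averaged 0.304 CPM. These 2 sums therefore say little about brain or fat cells. Liver sums were 7.46 to 39.8 CPM in MP-coded and 5.16 to 334 CPM in P-coded hearts, 8 of 12 markers at 1 CPM or more. None of these lists had a marker at 0 in all libraries. The part of these lists in the differences between codes was not tested.

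Set against the virgin hearts, which both comparisons share, MP-coded hearts had 74 of 79 genes with a positive log2 fold change (93.7%, against 49.0% of all genes) and a median of 0.06. P-coded hearts had 25 of 79 (31.6%, against 47.0%) and a median of -0.02. In MP-coded against virgin hearts 0 of 79 genes passed in edgeR, against 0% of 18442 genes, and 1 had an unadjusted p under 0.05 (8.65% of all genes did), Rpl21, with a log2 fold change of 0.20 (SE 0.08, edgeR adjusted p = 0.477). The unadjusted count was 15 without multiparous 6, 12 without virgin 1, 3 without virgin 2 or without virgin 8, 2 without multiparous 8, virgin 3 or virgin 5, and 0 without multiparous 3 or without multiparous 4. In P-coded against virgin hearts 0 of 79 passed, against 0.521% of 18612 genes, and 0 had an unadjusted p under 0.05, against 8.29%. DESeq2 also called 0 in both. The 95% interval stayed within 1.2-fold for 66 genes of MP-coded against virgin hearts (39.9% of all genes) and for 76 of P-coded against virgin hearts (40.7%). Here too the level of the chosen genes sets the contrast in part. No ribosomal protein gene had values apart from the virgin ones: 0 were so in MP-coded hearts, against 0.396% of all genes higher and 0.434% lower, and 0 in P-coded hearts, against 0.424% higher and 0.634% lower. In P-coded against virgin hearts the direction depended on the setting. Without TMM factors 52 of 79 were positive with a median of 0.02, but the median of all genes also moved, from -0.00797 to 0.026. Other scalings gave 25 or 31. With the kidney marker sum as a covariate 52 were positive, and without virgin 1 and virgin 8 together 50. Among single libraries, leaving out virgin 2 gave 39 and leaving out virgin 7 gave 14, with the median below 0 in each case. The kidney sum was 20.2 to 40.9 CPM in MP-coded, 14.7 to 30.1 CPM in P-coded and 23.6 to 149 CPM in virgin hearts.

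Most genes that build the ribosome had lower values in multiparous hearts, by little. Of 73 ribosome biogenesis genes, 6 had a positive and 67 a negative log2 fold change in multiparous hearts, with a median of -0.06 against -0.00297 over all genes, of which 9150 of 17813 were negative. In edgeR 0 passed and 18 of 73 had an unadjusted p under 0.05, against 8.12% of all genes. DESeq2 called 1 of them, Rrp12, and 128 over all genes. Without TMM factors 46 were negative, with a median of -0.03. Rrp12, needed for export of both subunits in yeast, averaged 26.2 ± 1.6 CPM in multiparous hearts, against 31.6 ± 3.4 CPM in virgin hearts, a log2 fold change of -0.27 (SE 0.06, edgeR adjusted p = 0.115). Nolc1, a nucleolar chaperone of small nucleolar ribonucleoproteins, averaged 19.1 ± 1.0 CPM in multiparous hearts, against 21.4 ± 1.3 CPM in virgin hearts (-0.16, SE 0.04, edgeR adjusted p = 0.228). In MP-coded against P-coded hearts the list was balanced, with 33 positive and 40 negative.

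No translation factor passed the test. Of 37 initiation factors 4 were positive and 33 negative in multiparous hearts, with a median of -0.04, and 22 negative without TMM factors. Eif4a1, the helicase of the cap-binding complex, averaged 120.9 ± 3.7 CPM in multiparous hearts, against 131.0 ± 6.3 CPM in virgin hearts (-0.12, SE 0.03, edgeR adjusted p = 0.256). Eif2b4, a subunit of the exchange factor of Eif2, had -0.13 (edgeR adjusted p = 0.399). Of 15 elongation and release factors 4 were positive and 11 negative, and 8 were positive without TMM factors. Eef1e1, a scaffold protein of the tRNA synthetase complex, had -0.15 and Abce1, which recycles ribosomes, -0.09 (edgeR adjusted p = 0.369 and 0.490). Of 32 genes of TOR signalling and TOP control 12 were positive and 20 negative, 17 and 15 without TMM factors. Lamtor3, of the lysosomal anchor of TOR complex 1, had -0.10 and Rictor, of TOR complex 2, 0.11 (edgeR adjusted p = 0.404 and 0.511).

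No gene of the lists that respond to faults in ribosomes passed either. Of 15 genes of ribosomal stress and p53, 7 were positive and 8 negative in multiparous hearts, and 9 were positive without TMM factors. Plk2, a p53 target kinase, had 0.20 and Trp53 itself -0.14 (edgeR adjusted p = 0.613 and 0.695). Of 20 genes of ribosome quality control, 4 were positive and 16 negative, and 13 were positive without TMM factors. Map3k20, the kinase that senses ribosome collisions, averaged 549 ± 27 CPM in multiparous hearts, against 587 ± 43 CPM in virgin hearts (-0.10, edgeR adjusted p = 0.635), and Pelo, a rescue factor, had -0.12 (edgeR adjusted p = 0.717). Of 17 host genes of small nucleolar RNAs, 4 were positive and 13 negative, and 10 were positive without virgin 1 and virgin 8 together. Snhg15 and Epb41l4aos had -0.45 and -0.27 (edgeR adjusted p = 0.291 and 0.530) at levels near 1 CPM.

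Between the codes, Snhg11 of that last list passed, named here because it did. It had 5.19, 2.51, 6.11 and 3.29 CPM in MP-coded hearts, 0.777, 1.26, 0.669 and 0.940 CPM in P-coded hearts, and 0.865 to 5.84 CPM in virgin hearts. The log2 fold change, MP over P, was 2.25 (SE 0.30, edgeR adjusted p = 0.0273), with no overlap of the codes.

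Ribosomal proteins whose symbols fall outside the rule were measured too, 7 in all, and 0 passed. Rps3a1, of the small subunit, averaged 207.2 ± 7.2 CPM in multiparous hearts, against 203.0 ± 13.4 CPM in virgin hearts. Fau, which carries a small-subunit protein fused to a ubiquitin-like one, averaged 61.3 ± 3.1 CPM in multiparous hearts, against 59.98 ± 4.5 CPM in virgin hearts. Rack1, a scaffold on the small subunit head, averaged 171.9 ± 5.7 CPM in multiparous hearts, against 173.1 ± 14.2 CPM in virgin hearts. Rpl7l1, a nucleolar relative of Rpl7, had the smallest p of these, with a log2 fold change of -0.12 (SE 0.04, edgeR adjusted p = 0.425).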

How the data were processed

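Per the labels' protocols, hearts were perfused, column-purified RNA went into a stranded, ribosomal-RNA-depleted total RNA preparation read as 150-base pairs. Per the submitters' processing notes, tools included STAR 2.7.11b and HTSeq 0.11.1 with build GRCm38.p6. The authors deposited raw counts per gene, 1 table a library. Rows naming no gene, which held 26.5% to 33.1% of the counts in each table, stayed out. The ribosomal protein genes and all gene lists were chosen with earlier results of these data known. Each comparison was fitted over all genes with edgeR 4.0.16 in R 4.3.3: TMM, filterByExpr, quasi-likelihood test, Benjamini-Hochberg adjustment at 0.05, checked on simulated data. SEs come from the F statistic. DESeq2 1.42.0 and limma voom 3.58.1, other scalings and filters, covariates and omitted libraries were alternatives. Identifiers with version matched GENCODE M21 (GRCm38) for 98.1%. Genes named are those passing, 6 each way by p between groups, 4 each way between codes, the 4 highest and lowest per length, 19 fixed symbols, those next to the limit and 2 per translation list. The labels do not call the libraries separate animals beyond stating 8 mice a group, so p-values measure the spread between libraries. No 2 libraries of the same group agreed within sampling noise (chi-square over degrees of freedom at least 8.93 in 56 pairs). Pairs across the groups were not compared in this way. The values of 1 gene of the translation lists are not reported here.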

Additional observations from a re-analysis of the deposited data

Results flagged for a closer look

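In 104 sets of 4 or 8 libraries, Dixon's test marked 5 values as far from the rest of their group, and chance alone marks about 1 in 20. Rps9 stood at 104.6 CPM in multiparous 4, with the next multiparous heart at 96.24 CPM. Rps27l stood at 20.02 CPM in virgin 7, below 22.91 CPM in the next virgin heart. Rps26 reached 103.0 CPM in virgin 1, above 87.77 CPM in the next. The ratio of Rpl22l1 to Rpl22 per kilobase was 0.2023 in multiparous 6, with 0.1569 next, and 0.1213 in virgin 7, with 0.1414 next.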

How the results depend on the processing

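No ribosomal protein gene passed in any of the 95 alternatives. The median log2 fold change over single left-out libraries ran from 0.0051 to 0.0405 for multiparous against virgin, from 0.0588 to 0.104 for MP-coded against P-coded, from 0.0374 to 0.0908 for MP-coded against virgin and from -0.0378 to -0.00217 for P-coded against virgin hearts. With the replicate block, multiparous against virgin gave 0 calls, a median of 0.0227, 62 positive genes and 33 calls over all genes. Replicate numbers correlated between -0.134 and 0.171, so they do not pair the hearts. The block was fitted for that comparison alone. No paired analysis was possible between MP-coded and P-coded hearts because they share no replicate number. Calls over all genes moved more: from 2 to 128 (DESeq2), 56 (no filter) and 39 (adjusted p under 0.1) between groups, from 22 to 295, 389 and 89 between codes, from 0 to 118 with DESeq2 for MP-coded against virgin, and from 97 to 240 with DESeq2 and 1 with limma voom for P-coded against virgin. Signs near 0 turned in multiparous against virgin. Without TMM factors these were Rpl13a (0.0104), Rpl22 (0.00961), Rpl26 (0.0219), Rpl36al (0.00673), Rps7 (0.000953) and Rpsa (0.0261). With the kidney marker covariate they were Rpl13a (0.0736), Rpl22 (0.00755), Rpl26 (0.0468), Rpl36al (0.0824), Rpl39 (0.111), Rps13 (0.00332), Rps7 (0.0294) and Rpsa (0.0388). Without both virgin 1 and virgin 8, chosen after seeing the data, they were Rpl13a (0.0309), Rpl26 (0.0200), Rpl36al (0.00756), Rpl39 (0.0252) and Rpsa (0.0074). Over left-out libraries Rpl11 ran from -0.0186 to 0.0364, Rpl13a from -0.0581 to 0.00674, Rpl26 from -0.0351 to 0.0136, Rpl36al from -0.0698 to 0.00407, Rpl39 from -0.0868 to 0.0211, Rplp2 from -0.0152 to 0.0444, Rps2 from -0.0171 to 0.0328, Rps26 from -0.00251 to 0.0484, Rps4x from -0.00814 to 0.0302 and Rpsa from -0.0257 to 0.00478. In MP-coded against P-coded hearts Rps27 turned to 0.0166 with the kidney covariate, and over left-out libraries Rpl31 ran from -0.0425 to 0.00834, Rps26 from -0.0481 to 0.000499 and Rps27 from -0.0811 to 0.0214. The cause was not tested. Levels per kilobase changed with the length used, a choice partly added after seeing the data.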
